A study of Mus musculus with 12 samples.

Results

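The 42 genes described here encode lysosomal enzymes, lysosomal membrane proteins and the 3 transcription factors of the TFEB family that regulate them. They were listed by name for what their products do, 42 of the 54532 genes counted in each library, and the list has no cut on a measured value. It was drawn up with earlier results of these same libraries known, so the differences between groups are given as a description of this list. All 42 were measured well above the detection limit, with at least 104 reads in every library, and all 42 passed the filter on low counts.

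The libraries are bulk RNA sequencing of 12 mouse malignant peripheral nerve sheath tumours, which are soft-tissue sarcomas arising in or beside peripheral nerves. The mice are labelled as strain C57B/6 with the genotype WT, and every tumour, treated or not, was started with an adenovirus carrying a Cas9 system against Nf1 and a gene spelled Cdk2na in the labels. Each of the 3 groups held 4 tumours: vehicle tumours, taken at the terminal harvest, and tumours from mice dosed every day by oral gavage with palbociclib (100 mg/kg, a CDK4/6 inhibitor) plus mirdametinib (1 mg/kg, a MEK inhibitor), taken either during regression (the regressing group) or at the terminal harvest (the terminal combination group). No age is given, the tumours hold whatever host cells had entered them, and no label says whether the 4 tumours of a group came from separate mice, so p-values reflect the scatter among these 12 samples, which may be technical.

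Lysosomes are the acidic compartments in which cells break down proteins, lipids, glycogen and the sugar chains of the matrix, each by its own hydrolase. TFEB and its relatives TFE3 and MITF bind E-box sequences near lysosomal and autophagy genes, the so-called CLEAR elements, and are held in the cytoplasm by mTORC1 while nutrients are plentiful. Macrophages and osteoclasts are rich in lysosomal proteases, and muscle holds its own store of lysosomal glycogen-degrading enzyme, so in a tumour with infiltrating cells a lysosomal transcript can have several sources. In bulk RNA, fewer cells of a type and less RNA per cell cannot be told apart.

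Depth ran from 13194699 to 22639625 counted reads per library, at which a count of 0 allows up to 0.133 to 0.227 CPM for counting error only. CPM, counts of a gene adjusted for the depth of its library, are scaled here by the TMM library size. Mitochondrial reads made up 0.562 to 2.14% of the reads. Nf1 stood at 10.22 to 23.8 CPM and Cdkn2a at 5.084 to 393.2 CPM over the 12 libraries, counts that do not show whether the edited site is present. Of the Schwann lineage markers, Sox10 reached at most 2.1 CPM and the summed level of the list ran from 9.79 to 57.2 CPM. Skeletal muscle markers were uneven: their score, the mean log2 CPM of 9 genes, was highest in regressing replicates 1 (11.93) and 4 (11.48) and terminal combination replicate 2 (11.19), and lowest in vehicle replicate 2 (5.43). The 18 macrophage markers scored between 5.56 in vehicle replicate 2 and 7.42 in vehicle replicate 1. Summed macrophage levels ran from 2260 to 6790 CPM in vehicle, 3140 to 7050 in regressing and 3470 to 5730 in terminal combination tumours, and no gene of that list is among the 42.

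A minority of the promoters carry the E-box core. The promoter windows, 250 bases before to 50 after each RefSeq start site on GRCm38.p6, were found for 37 of the 42 genes. No window was at hand for Ctsb, Npc1, Galns, Asah1 and Ctsh. The core E-box CACGTG, which reads the same on both strands, was present for 11 of the 37 (29.7%), against 8.09% of all 27025 genes with windows of the same length. The carriers were Arsa, Ctsa, Ctsd, Ctsl, Gaa, Gla, Glb1, Lamp1, Mcoln1, Naglu and Sgsh. The longer form TCACGTGA, which contains the core, was present for Ctsa, Ctsd, Gla and Mcoln1 (10.8% against 1.12% of all genes), and the full palindrome GTCACGTGAC for none of the 37 against 0.37%. These matches are descriptions of letters, not of binding.

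The sequence before the Naglu start site is printed because Naglu had the largest difference relative to its error among the 42, and shorter windows are printed for its partner enzyme Sgsh (its 1 core), for the 4 genes with the longer form and for Lamp1, to show its 4 cores. The Ctsd window shows the longer form, and its other core, nearer the 5′ end of the promoter window, is not printed. They are written 5′ to 3′ on the strand of the gene, with each core E-box in capitals. Positions on GRCm38.p6, from RefSeq, are chr11:101069844-101070093 (plus strand) for Naglu, chr11:119355507-119355566 (minus) for Sgsh, chr2:164833734-164833793 (plus) for Ctsa, chr7:142387893-142387952 (minus) for Ctsd, chrX:134601186-134601242 (minus) for Gla, chr8:3500421-3500480 (plus) for Mcoln1 and chr8:13159090-13159159 (plus) for Lamp1. The Naglu core starts 73 bases before the RefSeq start site. Gene models in GENCODE M21 can start elsewhere. The Naglu model starts at chr11:101070012, inside the printed window and before its core. The printed Ctsa and Ctsd windows, and the Ctsl window, lie wholly inside their gene models.
Naglu: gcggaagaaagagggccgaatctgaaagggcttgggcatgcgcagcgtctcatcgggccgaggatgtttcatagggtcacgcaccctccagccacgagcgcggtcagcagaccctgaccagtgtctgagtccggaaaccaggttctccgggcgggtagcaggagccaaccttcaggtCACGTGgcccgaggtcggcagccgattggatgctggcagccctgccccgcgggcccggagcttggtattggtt
Sgsh: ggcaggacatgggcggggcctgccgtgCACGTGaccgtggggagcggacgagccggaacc
Ctsa: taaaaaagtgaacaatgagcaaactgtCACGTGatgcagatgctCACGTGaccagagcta
Ctsd: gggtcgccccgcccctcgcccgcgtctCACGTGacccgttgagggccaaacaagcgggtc
Gla: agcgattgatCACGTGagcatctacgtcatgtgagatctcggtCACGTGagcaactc
Mcoln1: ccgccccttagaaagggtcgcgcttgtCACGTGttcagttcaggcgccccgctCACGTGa
Lamp1: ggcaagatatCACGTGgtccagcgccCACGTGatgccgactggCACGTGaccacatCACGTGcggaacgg

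Genes with and without the core had overlapping differences between groups. Between regressing and vehicle tumours the 11 carriers had a median log2 difference of 0.21 (from −0.62 for Ctsl to 0.97 for Naglu) and the 26 others one of 0.17 (from −0.10 to 1.36). Between terminal combination and vehicle tumours the medians were 0.35 and 0.24. Tfeb, Fuca1, Smpd1, Manba and Tpp1, described further on, lack the core in these windows.

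Most lysosomal genes were somewhat higher in treated than in vehicle tumours, by small amounts, and none passed the test. In regressing tumours 31 of the 42 were higher and 11 lower than in vehicle tumours, with a median log2 difference of 0.16 against −0.02 over all 15650 genes tested. In terminal combination tumours 33 were higher and 9 lower, with a median of 0.24 against 0.00. Between the 2 treated groups 26 were higher and 16 lower in terminal combination, with a median of 0.06 against 0.01. The first median was 0.10 without regressing replicate 4 or with the muscle score in the model and 0.27 without the FFT libraries, and the third was 0.01 without terminal combination replicate 1 or 2. The first 2 comparisons share the vehicle libraries and are set side by side without a measure of likeness. The 42 genes together took 1.14% ± 0.123 of the scaled reads in vehicle, 1.21% ± 0.143 in regressing and 1.35% ± 0.32 in terminal combination tumours (SD, n = 4), and their ranges overlapped (0.961 to 1.23%, 1.03 to 1.37% and 0.996 to 1.63%). Summed levels were 16300, 16200, 9960 and 11700 CPM in terminal combination replicates 1 to 4. Replicates 3 and 4 thus lay within the vehicle range of 9610 to 12300 CPM.

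By edgeR's quasi-likelihood test with Benjamini-Hochberg adjustment over all genes, at a threshold of 0.05, 0 members passed in any of the 3 comparisons, beside 0% of all genes in each, and limma-voom gave the same 0 of 42 and 0%. This does not show that the levels were alike. The smallest adjusted p among members was 0.236 for regressing against vehicle, 0.819 for terminal combination against vehicle and 0.692 for terminal combination against regressing. DESeq2 called 3 members for regressing against vehicle (7.14%), Naglu, Tfeb and Fuca1, where it called 3.11% of all genes. It called 0 members in the other comparisons, with 0.0902% and 0.328% of all genes. Without adjustment, edgeR gave p under 0.05 for 4 members (9.52%) in regressing against vehicle, below the 12.7% of all genes. The same count was 6 (14.3%) for terminal combination against vehicle beside 5.94% of all genes, and 2 (4.76%) for terminal combination against regressing beside 7.02%.

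All 4 regressing tumours lay above all 4 vehicle tumours for 3 members (7.14%; 3.5% of all genes) and below them for 0 (4.13% of all genes). Terminal combination lay wholly above vehicle for 2 members (4.76%; 1.21% of all genes) and below for 0 (1.3%). Terminal combination lay wholly below regressing for 1 member (2.38%; 1.51% of all genes) and above for 0 (2.4%).

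**Figure D1:**
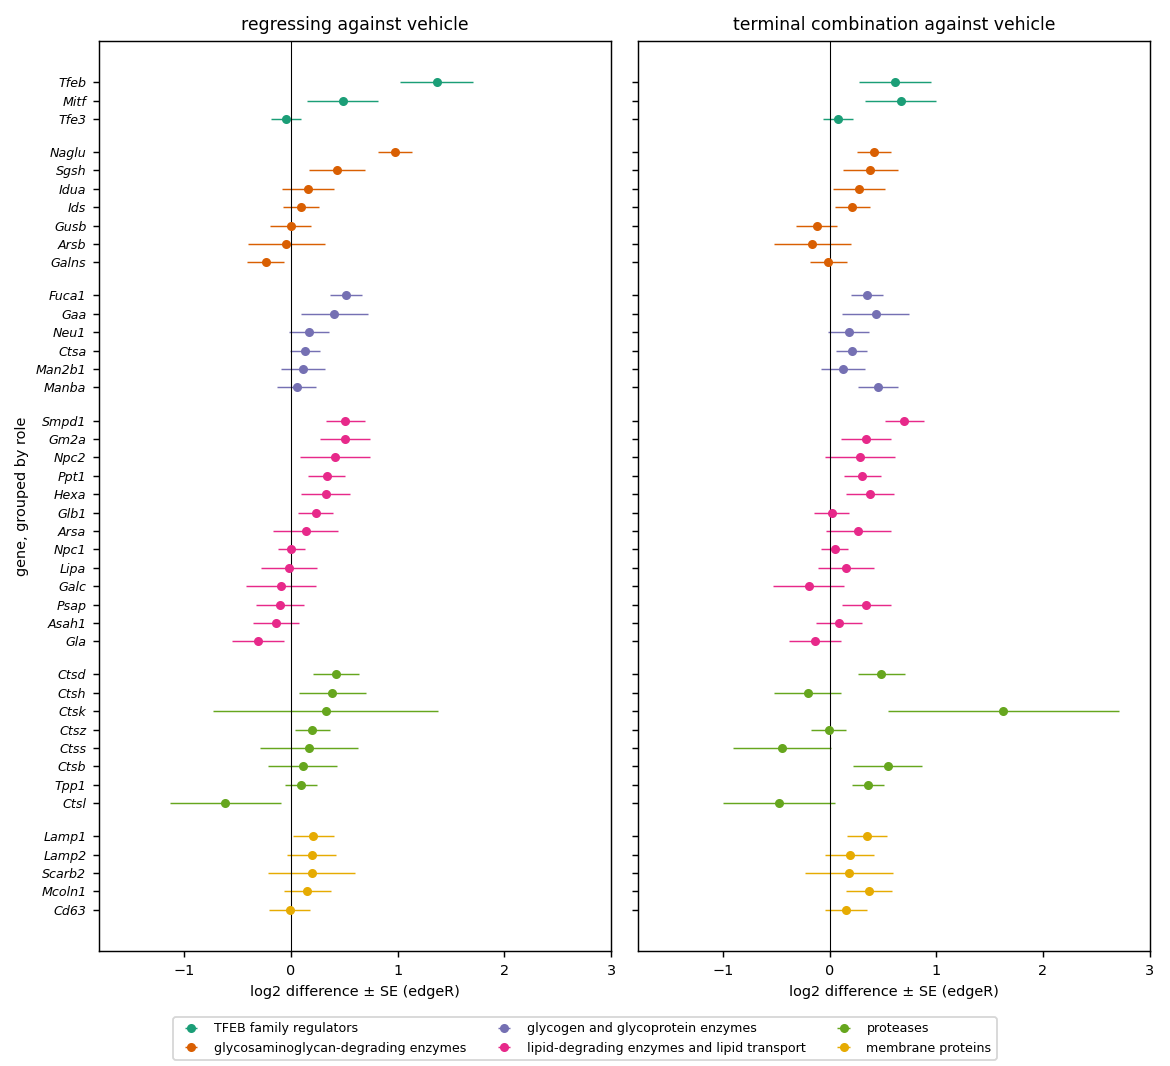
Log2 difference from vehicle ± SE (edgeR fit of all 12 libraries) for each of the 42 genes, grouped and coloured by role, for regressing (left) and terminal combination tumours (right). Most points lie to the right of 0; Tfeb (1.36) and Naglu (0.97) lie farthest right among regressing tumours, and Ctsk in terminal combination tumours has the widest error (1.63 ± 1.08).

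Among the 3 TFEB family regulators, Tfeb had the largest difference between groups and Tfe3 differed by less than its error. Tfeb (ENSMUSG00000023990, chr17:47737030-47792419), the factor most closely tied to lysosome biogenesis, was at 16.9, 13.1, 10.02 and 15.1 CPM in vehicle replicates 1 to 4, 55, 17.7, 24 and 45 in regressing and 16.7, 26.6, 18 and 22.9 in terminal combination replicates. The regressing libraries lay above all vehicle libraries, and replicates 1 and 4 stood apart from the other two. Its log2 difference from vehicle was 1.36 ± 0.34 (SE; edgeR adjusted p = 0.236, DESeq2 adjusted p = 0.0103) in regressing and 0.61 ± 0.34 (edgeR adjusted p = 0.839) in terminal combination tumours, and −0.75 ± 0.33 between those 2 groups (edgeR adjusted p = 0.707).

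Tfeb was highest in the treated tumours with the most skeletal muscle RNA. In a fit with the 3 groups and the muscle score, its slope was 0.27 log2 units per unit of score (edgeR adjusted p = 0.0648). The 2 regressing libraries with the highest Tfeb had the highest muscle scores, and terminal combination replicates 2 and 4, with the highest Tfeb of their group, had scores of 11.19 and 10.21, the highest there. With the muscle score in the model the log2 difference from vehicle was 0.40 in regressing and −0.07 in terminal combination tumours, and without regressing replicates 1 and 4 it was 0.60 in regressing tumours (edgeR adjusted p = 1.0 for each). The difference between the treated groups was then 0.02 (edgeR adjusted p = 0.998). Over 22 alternatives the adjusted p of Tfeb ran from 0.0103 to 1.0 for regressing and from 0.553 to 1.0 for terminal combination against vehicle. Without a group term, and without vehicle replicate 2, the slope passed the threshold (edgeR adjusted p = 0.00107 and 0.0239), beside 5.52% and 1.81% of all genes called. Over all genes the muscle slope was called for 1.55%, and for 10.7% without adjustment. Among members it was called for 0, and had an unadjusted p under 0.05 for 2 (4.76%), Tfeb and, with a negative slope of −0.16, Sgsh.

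Tfe3, its close relative on the X chromosome, was at 82.9, 75.8, 58.9 and 69.5 CPM in vehicle, 71.4, 78.9, 61.3 and 67 in regressing and 84.6, 74.6, 65.8 and 78.2 in terminal combination tumours. The groups overlapped throughout and the log2 differences from vehicle were −0.04 ± 0.14 and 0.08 ± 0.14 (SE). Mitf, best known as the regulator of melanocytes and osteoclasts, was at 10.2, 9.01, 7.63 and 6.07 CPM in vehicle, 15.5, 7.96, 9.98 and 12.6 in regressing and 12, 22.1, 7.92 and 10.2 in terminal combination tumours. Its highest value, in terminal combination replicate 2, belongs to the library with the highest osteoclast-associated transcripts, which also had a muscle score of 11.19. The next highest, in regressing replicate 1, belongs to the library with the lowest summed osteoclast markers (17.6 CPM). In regressing replicate 3, where those markers summed to 255 CPM, Mitf was at 9.98 CPM. The log2 differences from vehicle were 0.48 ± 0.33 and 0.67 ± 0.33 (edgeR adjusted p = 0.558 and 0.829), and with the muscle score in the model they were −0.10 and 0.21. The first was 0.30 without regressing replicate 1 and the second 0.29 without terminal combination replicate 2. The melanocyte marker Dct stood at 0.154 CPM or less in every library. Tyr reached 21.8 CPM in regressing replicate 2 and stood at 0 in the vehicle and terminal combination libraries. Pmel, the 1 of 5 melanocyte markers that passed the filter, had mean CPM ratios to vehicle of 2.76 in regressing and 3.16 in terminal combination tumours. It was not called by edgeR. The 5 markers together summed to at most 0.934 CPM in vehicle and 2.3 CPM in terminal combination tumours.

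Of the 7 glycosaminoglycan-degrading enzymes, Naglu had the largest difference in regressing tumours. Naglu (ENSMUSG00000001751, chr11:101070012-101077672), the lysosomal N-acetylglucosaminidase that trims heparan sulfate and is lost in Sanfilippo syndrome type B, was at 44.2, 62.2, 44 and 46.9 CPM in vehicle, 89.4, 87.4, 115 and 95.2 in regressing and 52.9, 70.8, 71.3 and 67.9 in terminal combination tumours. The 4 regressing tumours lay above all 8 others, and terminal combination lay between, overlapping vehicle through vehicle replicate 2 and terminal combination replicate 1. Mean levels were 49.3 ± 8.66, 96.8 ± 12.7 and 65.7 ± 8.65 CPM (SD, n = 4), a ratio of 1.96 between regressing and vehicle means.

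The log2 difference of Naglu was 0.97 ± 0.16 (SE) between regressing and vehicle, 0.41 ± 0.16 between terminal combination and vehicle, and −0.56 ± 0.16 between terminal combination and regressing. For regressing against vehicle this was the smallest unadjusted p of all 15650 genes, yet its adjusted p was 0.236 by edgeR, by which 0 genes were called, and 4.18e-05 by DESeq2. The other comparisons had edgeR adjusted p of 0.819 and 0.692 and DESeq2 adjusted p of 0.464 and 0.153. Over 22 alternative settings the regressing difference stayed between 0.88 and 1.12 (adjusted p from 4.18e-05 to 1.0), among them 1.01 with the muscle score, 1.04 with the macrophage score and 1.04 without regressing replicates 1 and 4. No exon base of Naglu is shared with another annotated gene.

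**Figure D2:**
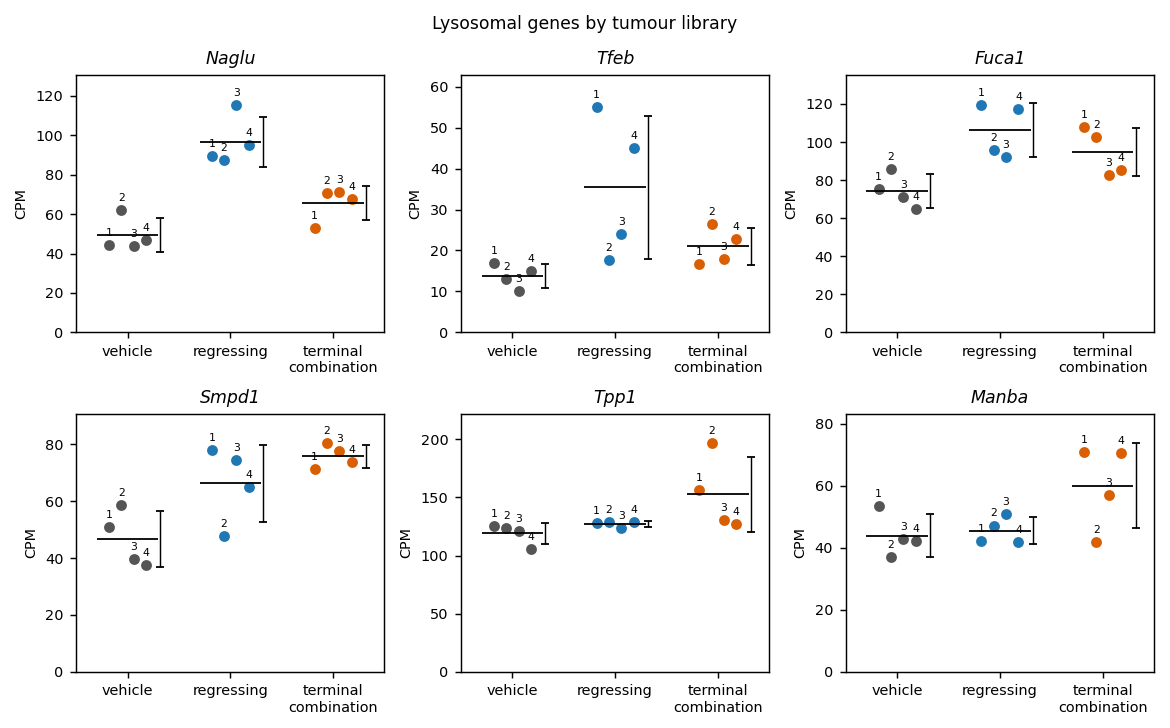
CPM of Naglu, Tfeb, Fuca1, Smpd1, Tpp1 and Manba in each tumour, by group; digits are replicate numbers, horizontal lines group means and vertical bars ± SD (n = 4), each axis starting at 0. The 4 regressing points of Naglu (87.4 to 115) lie above every other library, while the regressing points of Tfeb spread from 17.7 to 55.0.

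Several enzymes that act beside Naglu on heparan sulfate, picked for this after values were seen, had ratios closer to 1, a difference between genes that was not tested. The ratio of regressing to vehicle mean CPM was 1.35 for Sgsh, the sulfamidase, 1.03 for Hgsnat, the membrane acetyltransferase whose product Naglu cleaves, 1.12 for Idua, the iduronidase, 1.07 for Ids, the iduronate sulfatase, and 0.993 for Gusb, the glucuronidase. Sgsh shares 21.6% of its exon bases with Card14, on the opposite strand. The sulfatases Galns, for keratan sulfate, and Arsb, for dermatan sulfate, had ratios of 0.848 and 0.966. Gene models on the opposite strand cover 39.9% of the exon bases of Arsb. Over the 7 glycosaminoglycan-degrading members (Hgsnat is not one) the log2 differences from vehicle ran from −0.24 to 0.97 in regressing (4 higher, median 0.10) and from −0.16 to 0.41 in terminal combination tumours (4 higher, median 0.21).

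All 6 glycogen and glycoprotein enzymes were higher than vehicle in both treated groups, with medians of 0.15 and 0.28 and no edgeR call. Fuca1 (ENSMUSG00000028673, chr4:135920735-135940311), the fucosidase that takes fucose off glycoproteins, was at 75.2, 85.8, 71.3 and 64.8 CPM in vehicle, 119, 96, 92.2 and 118 in regressing and 108, 103, 82.9 and 85.2 in terminal combination tumours. All regressing libraries lay above the vehicle libraries, and terminal combination overlapped vehicle at replicates 3 and 4. The log2 differences were 0.52 ± 0.15 (SE; edgeR adjusted p = 0.254, DESeq2 adjusted p = 0.0319) and 0.35 ± 0.15 (edgeR adjusted p = 0.819). Without regressing replicates 1 and 4, its 2 highest libraries, the first was 0.34 (edgeR adjusted p = 1.0; 0.0319 to 1.0 over the alternatives).

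Manba, the mannosidase at the end of glycoprotein breakdown, was higher in terminal combination tumours, at 70.9, 41.8, 57 and 70.6 CPM against 53.5, 37, 42.9 and 42.1 in vehicle and 42.1, 47.2, 51 and 41.8 in regressing tumours. Replicate 2 lay within the vehicle range and the other 3 above it, a log2 difference of 0.45 ± 0.18 from vehicle (edgeR adjusted p = 0.819) and 0.40 ± 0.18 from regressing tumours (edgeR adjusted p = 0.708). Man2b1, the other lysosomal mannosidase, was at 224, 114, 169 and 194 CPM in vehicle, 173, 226, 163 and 198 in regressing and 234, 169.8, 185 and 175 in terminal combination tumours, with full overlap. Ctsa, the protective protein that stabilises Neu1 and Glb1, was among the steadiest members, at 320.4, 236, 247 and 269 CPM in vehicle, 312, 328, 271 and 262 in regressing and 343, 322, 278 and 294 in terminal combination tumours.

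Gaa, the glycogen-degrading glucosidase of Pompe disease, differed from vehicle by 0.41 ± 0.32 and 0.43 ± 0.32 on the log2 scale, and Neu1, the sialidase, by 0.17 ± 0.19 and 0.18 ± 0.19 (SE). The spread of Gaa within groups was wide, 205.0 to 329 CPM in vehicle, 244 to 564 in regressing and 226 to 546 in terminal combination tumours.

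Among the 13 lipid-degrading enzymes, their activators and the cholesterol transporters, Smpd1 was the single gene with a treated group wholly clear of vehicle, the terminal combination group. Smpd1 (ENSMUSG00000037049, chr7:105554360-105558389), the acid sphingomyelinase that turns sphingomyelin into ceramide, was at 51.1, 58.6, 39.5 and 37.5 CPM in vehicle, 78, 47.7, 74.6 and 65 in regressing and 71.3, 80.3, 77.7 and 73.9 in terminal combination tumours. Terminal combination lay above every vehicle library and within a narrow band, while regressing replicate 2 fell inside the vehicle range. The log2 differences were 0.70 ± 0.18 for terminal combination (SE; edgeR adjusted p = 0.819, DESeq2 adjusted p = 0.14) and 0.51 ± 0.18 for regressing against vehicle (edgeR adjusted p = 0.296).

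Gm2a, the activator protein that hands GM2 ganglioside to hexosaminidase A, was at 116, 65.4, 86.4 and 96.3 CPM in vehicle, 116, 130.1, 90.8 and 179 in regressing and 115, 109.9, 92.2 and 145 in terminal combination tumours. Its highest values were in replicate 4 of each treated group and the groups overlapped (log2 difference 0.50 ± 0.23 in regressing, edgeR adjusted p = 0.405; 0.30 without regressing replicate 4 and 0.19 with the muscle score). Hexa, the enzyme subunit it serves, differed by 0.32 ± 0.23 and 0.38 ± 0.23. Glb1, the lysosomal β-galactosidase whose activity is stained as a marker of senescent cells, was at 66.2, 82.9, 68.8 and 78.9 CPM in vehicle, 86.7, 98.4, 91.6 and 71.8 in regressing and 65.7, 71.8, 98.4 and 64.6 in terminal combination tumours. Those ranges overlapped, with log2 differences of 0.23 ± 0.17 and 0.02 ± 0.17 (edgeR adjusted p = 0.571 and 0.993).

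Psap, the precursor of the saposins that present sphingolipids to their hydrolases, was the most abundant member per length. It was at 2131, 1776, 1963 and 1698 CPM in vehicle, 1589, 1794, 1599 and 2064 in regressing and 3268, 2386, 1471 and 2473 in terminal combination tumours, where replicates 1, 2 and 4 lay above all other libraries and replicate 3 below them. Its log2 difference between terminal combination and regressing was 0.45 ± 0.23 (edgeR adjusted p = 0.727), and 0.26 without terminal combination replicate 1 and 0.21 without the FFT libraries. The other lipid genes differed from vehicle by −0.31 (Gla, the globotriaosylceramide galactosidase) to 0.41 (Npc2, the soluble cholesterol carrier) in regressing tumours. Arsa, Galc, Asah1, Lipa and Ppt1, which act on sulfatide, galactosylceramide, ceramide, cholesteryl esters and palmitoylated proteins, lay between −0.14 and 0.33 in regressing and between −0.20 and 0.31 in terminal combination tumours. Npc1, the membrane partner of Npc2, was the steadiest of all 42: its highest library stood 1.35-fold above its lowest. Over the 13 genes, 8 were higher in regressing (median 0.14) and 11 in terminal combination tumours (median 0.27).

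The 8 proteases include the 3 members with the widest spread between tumours of a group, Ctsk, Ctsl and Ctss. Of the 8, 7 were higher than vehicle in regressing (median 0.18) and 4 in terminal combination tumours (median 0.17). Ctsd, the aspartic protease of the lysosome, was at 666, 377, 615 and 549.9 CPM in vehicle, 834, 709.8, 843 and 577 in regressing and 640.5, 788, 987 and 674 in terminal combination tumours. Most treated libraries lay above the vehicle median and the ranges overlapped, with log2 differences of 0.42 ± 0.22 and 0.48 ± 0.22 (edgeR adjusted p = 0.44 and 0.819), the first being 0.28 without vehicle replicate 2 and 0.24 with the muscle score. A gene model on the same strand, Gm49369, covers 34.4% of its exon bases, and how such reads were counted is not stated. Tpp1, the tripeptidyl peptidase lost in a childhood form of neuronal ceroid lipofuscinosis, was at 126, 124, 121 and 106 CPM in vehicle, 128, 129, 123 and 129 in regressing and 156, 197, 131 and 127 in terminal combination tumours. Terminal combination lay above vehicle in all 4 libraries, by a log2 difference of 0.36 ± 0.15 (edgeR adjusted p = 0.819). Replicate 2 was far above the others, and the difference was 0.21 without it. Scaled by raw library size instead, terminal combination replicate 4 was at 124.6 CPM, below vehicle replicates 1 and 3 (129.8 and 130.5).

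Ctsb, an abundant cysteine cathepsin, was at 2110, 1675, 1829 and 1394 CPM in vehicle, 1796, 2134, 1346 and 2283 in regressing and 3620, 3590, 1439 and 1566 in terminal combination tumours. Terminal combination replicates 1 and 2 were above every other library and replicates 3 and 4 within the vehicle range, a log2 difference of 0.54 ± 0.33 (edgeR adjusted p = 0.857), which was 0.33 with either of the 2 high libraries left out. Ctsk, the collagen-degrading cathepsin of osteoclasts and activated fibroblasts, was low in some libraries and high in others within each group: 33.8, 304, 28.5 and 26.5 CPM in vehicle, 47.4, 28.3, 233 and 184 in regressing and 504, 600.0, 62.7 and 47.3 in terminal combination tumours. The 5 high libraries, between 184 and 600 CPM, were vehicle 2, regressing 3 and 4 and terminal combination 1 and 2. The 7 others lay at 62.7 CPM or less, so the group difference rests on which libraries were high: 1.63 ± 1.08 for terminal combination against vehicle (edgeR adjusted p = 0.869), and 3.36 without vehicle replicate 2 but 1.06 without terminal combination replicate 2.

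Osteoclast markers were highest in 2 of those 5 libraries. Acp5, the tartrate-resistant acid phosphatase, stood at 242 CPM in regressing replicate 3 and 543 in terminal combination replicate 2. The fusion genes Ocstamp and Dcstamp were highest in the same 2, at 5.86 and 22 CPM and at 5.01 and 9.23 CPM, and at most 2.24 and 0.978 CPM elsewhere. The osteoclast proton pump subunit Atp6v0d2 followed at 23.4 and 41.9 CPM. In vehicle replicate 2 and terminal combination replicate 1, which were also high for Ctsk, Acp5 was at 69.3 and 30.2 CPM. Summed over the 5 osteoclast markers the level was 26.2 to 71.7 CPM in vehicle, 17.6 to 255 in regressing and 30.5 to 580 in terminal combination tumours, where regressing replicate 4, also high for Ctsk, was the third highest at 104 CPM. Calcr was at 0 in 9 of the 12 libraries, and the part of these cells in the Ctsk levels was not tested.

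**Figure D3:**
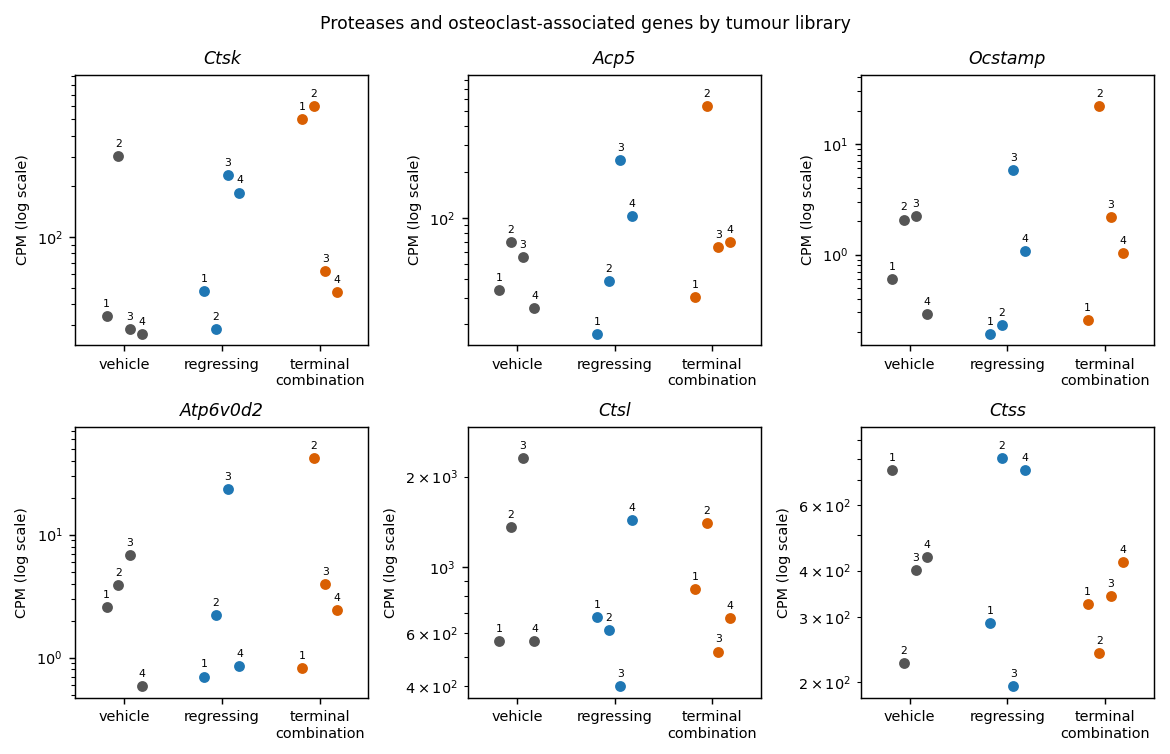
CPM on a log scale for Ctsk, the osteoclast-associated Acp5, Ocstamp and Atp6v0d2, and the proteases Ctsl and Ctss in each tumour, by group, with replicate numbers. Regressing replicate 3 and terminal combination replicate 2 are the highest of their groups for Acp5, Ocstamp and Atp6v0d2, whereas Ctsk is also high in vehicle replicate 2 and terminal combination replicate 1.

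Ctsl, a broad cysteine protease, had its highest level in vehicle replicate 3 and its lowest in regressing replicate 3, 2302 and 400.1 CPM, and was lower on average in both treated groups (log2 −0.61 ± 0.52 and −0.47 ± 0.52, SE). Other gene models, among them Gm49230 on the same strand, cover 26.8% of the exon bases of Ctsl. Ctss, the cathepsin of antigen-presenting cells, was at 747, 226, 401 and 436 CPM in vehicle, 289.5, 803, 195 and 745 in regressing and 324, 240.0, 342 and 422 in terminal combination tumours. Ctsh, an aminopeptidase of the same family, was at 174, 74.3, 122 and 142 CPM in vehicle, 157, 222, 86.4 and 205 in regressing and 136, 89.3, 91.9 and 127 in terminal combination tumours. Both were highest in regressing replicates 2 and 4 and vehicle replicate 1, and Ctsh differed by −0.59 ± 0.32 between terminal combination and regressing tumours (edgeR adjusted p = 0.738). Ctsz, another cathepsin, differed from vehicle by 0.20 ± 0.16 and −0.01 ± 0.16.

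The 5 membrane proteins differed little from vehicle in both treated groups. In regressing tumours 4 were higher (median 0.19, from −0.01 to 0.21), and in terminal combination tumours all 5 (median 0.19, from 0.15 to 0.37). Lamp1, the abundant glycoprotein that lines the lysosomal membrane, was at 782, 709.5, 552 and 585 CPM in vehicle, 878, 739, 646 and 778 in regressing and 932, 1012, 622 and 785 in terminal combination tumours. The ranges overlapped, with log2 differences of 0.21 ± 0.19 and 0.35 ± 0.19 (edgeR adjusted p = 0.663 and 0.839). Lamp2, its relative needed for autophagosome fusion, differed by 0.19 and 0.19, Cd63, a tetraspanin of late endosomes and exosomes, by −0.01 and 0.15, Scarb2, the receptor that carries glucocerebrosidase to the lysosome, by 0.19 and 0.18, and Mcoln1, the calcium channel whose opening activates TFEB, by 0.15 and 0.37 on the log2 scale.

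Length-adjusted levels (RPKM, from the union of exons) order the members by transcript abundance. Psap was highest at a mean of 735 RPKM over the 12 libraries, followed by Ctsb at 341, Ctss at 317, Ctsd at 293 and Lamp1 at 281, and Mitf at 1.76 and Galc at 1.56 were lowest. Each gene's range over the libraries overlapped that of the next in this order, except at the step from Galns (11.1 RPKM) to Tfe3 (7.82). Tfeb, at 4.13 RPKM, lay between Tfe3 and Mitf, and Naglu stood in the middle of the list at 26.6. The within-group SD of log2 CPM had a median of 0.31 over the members against 0.43 over all genes, and 29 of the 42 lay below the latter. The genes were not matched for level in this comparison, and low counts widen the scatter. Among members this SD ran from 0.14 for Npc1 to 1.71 for Ctsk.

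**Figure D4:**
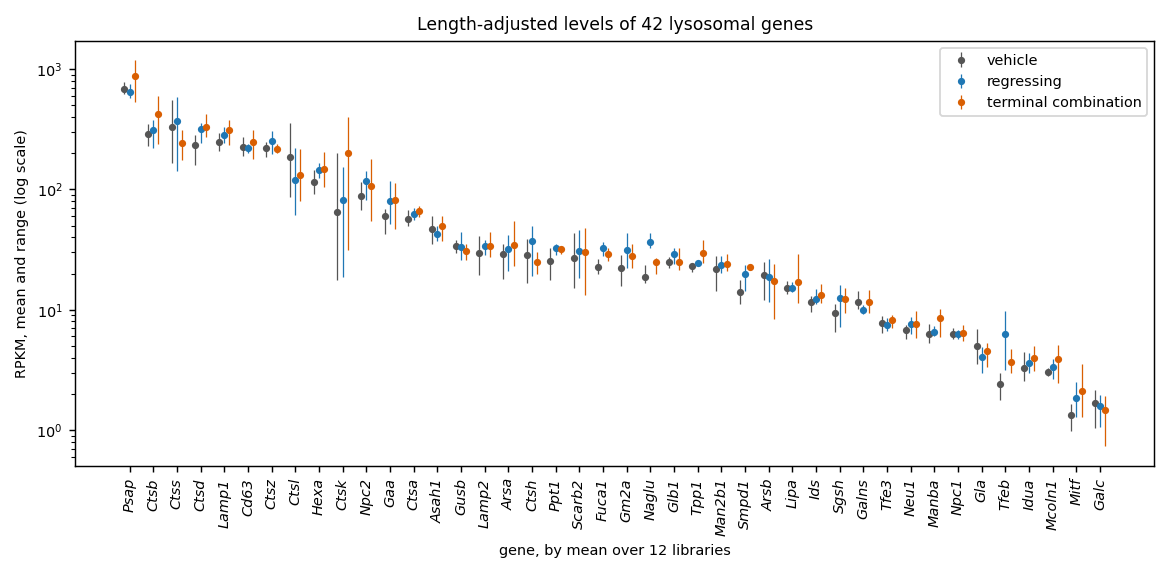
Mean RPKM of each of the 42 genes by group on a log scale, in order of the mean over 12 libraries, with bars from the lowest to the highest library of a group (n = 4). Psap is highest at 735 and Galc lowest at 1.56, and the widest bars belong to Ctsk.

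Several members were higher in tumours with more macrophage markers, although none past the adjusted threshold. In a fit with the 3 groups and the macrophage score, 27 of the 42 had a positive slope, with a median of 0.12 log2 units per unit of score against 0.00 over all genes (0.06 without vehicle replicate 1, 0.25 without vehicle replicate 2). No member was called by edgeR after adjustment (0.134% of all genes were), and 5 members (11.9%) had an unadjusted p under 0.05 beside 5.36% of all genes. These were Man2b1 at 0.47 (edgeR adjusted p = 0.32), Ctsh at 0.67 (0.573), Ctss at 0.80 (0.907) and Ctsa at 0.28 (0.722), and, with a negative slope, Naglu at −0.29 (0.821). With the 4 libraries titled FFT left out, the count was 0, beside 1.87% of all genes. Man2b1 was lowest (114 CPM) in vehicle replicate 2, the tumour with the lowest macrophage score, and was among the highest in vehicle replicate 1 and regressing replicate 2, the 2 with the highest scores. With the macrophage score in the model the median difference of the members from vehicle was 0.13 in regressing and 0.24 in terminal combination tumours.

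**Figure D5:**
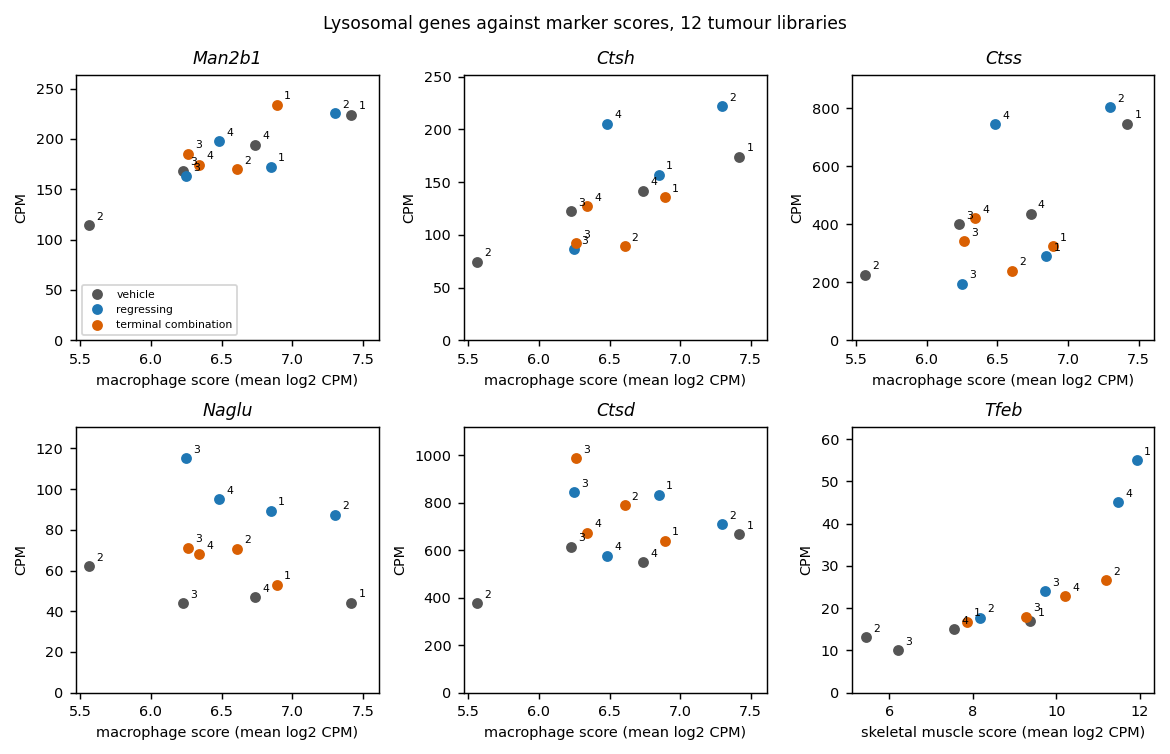
CPM of 5 lysosomal genes against the macrophage score and of Tfeb against the skeletal muscle score (mean log2 CPM of 18 and 9 markers) in the 12 tumours, coloured by group with replicate numbers. Man2b1 and Ctsh are lowest in vehicle replicate 2, at the lowest macrophage score (5.56), and Tfeb is highest in regressing replicates 1 and 4, at muscle scores of 11.93 and 11.48.

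Genes that work with the lysosome but are not among the 42 were taken from 6 lists by function. None of their genes passed edgeR's test in any comparison. Of 33 other lysosomal enzymes and membrane proteins, 28 were higher than vehicle in each treated group (medians 0.23 and 0.25). Tmem192, a lysosomal membrane protein, was at 30.3, 31, 21.2 and 36.4 CPM in regressing against 19.1, 19, 21.7 and 20.3 in vehicle tumours. Tpcn1, an endolysosomal two-pore cation channel, was at 121, 120.3, 186 and 134 CPM in terminal combination against 113, 90.9, 103 and 116 in vehicle tumours. Clcn7, the chloride and proton exchanger, had log2 differences of 0.29 ± 0.14 and 0.34 ± 0.14 (SE). All 18 subunits of the V-ATPase, the proton pump that acidifies the lysosome, were higher in terminal combination than in vehicle tumours (median 0.23), and 13 of 18 in regressing tumours (median 0.10). Atp6v0e led by p among them in terminal combination tumours, at 94.9, 134, 86.9 and 88.1 CPM against 70.9, 91.3, 71 and 66.7. The 18 subunits summed to 1680, 2280, 1500 and 1490 CPM in terminal combination replicates 1 to 4, against 1300 to 1630 in vehicle tumours. Only replicates 1 and 2 lay above the vehicle range, replicate 2 by far the most.

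The sorting machinery was more evenly split. Of 14 genes that tag and route hydrolases through mannose-6-phosphate, 5 were higher in regressing tumours (median −0.05) and 9 in terminal combination tumours (median 0.03). Igf2r, the large mannose-6-phosphate receptor, was at 187, 143, 159.8 and 190.4 CPM in regressing tumours against 358, 253, 204 and 248 in vehicle, without overlap (log2 −0.65 ± 0.38, edgeR adjusted p = 0.5), and terminal combination spanned 124 to 521. Gga2, an adaptor that loads these receptors into carriers, differed by −0.52 ± 0.20 in terminal combination tumours (edgeR adjusted p = 0.819). Of 19 genes of mTORC1 nutrient sensing at the lysosome, 12 were higher in regressing and 15 in terminal combination tumours (medians 0.10 and 0.10). Rragd, the Rag GTPase that TFEB is known to induce, was at 20.2, 3.29, 14.3 and 7.58 CPM in vehicle and 88.5, 10.4, 19.6 and 60.8 in regressing tumours, highest in the same replicates 1 and 4 as Tfeb and the muscle score (log2 1.98 ± 0.78, edgeR adjusted p = 0.327).

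Autophagy genes and cathepsin inhibitors had the largest medians of the 6 lists in regressing tumours, a difference between lists that was not tested. Of 20 autophagy genes, 18 were higher in regressing (median 0.31) and 17 in terminal combination tumours (median 0.18). Sqstm1, the cargo receptor p62, was at 381, 413, 437 and 478 CPM in vehicle, 990.2, 641, 597 and 632 in regressing and 528, 899, 575 and 560.2 in terminal combination tumours, so that both treated groups lay wholly above vehicle. Its log2 differences were 0.74 ± 0.22 (edgeR adjusted p = 0.254, DESeq2 adjusted p = 0.0379) and 0.58 ± 0.22 (edgeR adjusted p = 0.819). The highest Sqstm1 values were in regressing replicate 1 and terminal combination replicate 2, at muscle scores of 11.93 and 11.19. Regressing replicate 4, at a score of 11.48, stood at 632 CPM. Optn, the receptor optineurin, was at 6.42, 2.64, 5.75 and 3.21 CPM in vehicle and 23.3, 7.14, 6.43 and 20.2 in regressing tumours, again highest in replicates 1 and 4.

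All 5 cathepsin inhibitors were higher than vehicle in both treated groups (medians 1.04 and 0.44), and all 5 were lower in terminal combination than in regressing tumours (median −0.25). Serpinb6a, an intracellular serpin, was at 199, 179.7, 198 and 202 CPM in vehicle, 501, 289, 378 and 436 in regressing and 245, 454, 272 and 443 in terminal combination tumours, where every treated library lay above the 4 vehicle libraries, themselves within a narrow band. Its log2 differences were 1.04 ± 0.23 (SE; edgeR adjusted p = 0.236, DESeq2 adjusted p = 0.00371) and 0.86 ± 0.23 (edgeR adjusted p = 0.819). Serpinb6a was highest in regressing replicates 1 and 4 and terminal combination replicates 2 and 4, which had the 4 highest muscle scores. Cst3, the secreted inhibitor cystatin C, was at 619.6, 536, 317 and 506 CPM in vehicle, 1182, 661, 549 and 1252 in regressing and 471, 1066, 403 and 1128 in terminal combination tumours, high in regressing 1 and 4 and terminal combination 2 and 4, the libraries with the 4 highest muscle scores. What part muscle RNA has in these values was not tested.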

How the data were processed

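RNA of 12 tumours was sequenced, and treatment and harvest labels put 4 in each of 3 groups. The deposited values are raw counts, whole numbers per Ensembl gene. The submitters' processing notes name HISAT2 2.2.1, DESeq2 1.24.0 and Salmon, and give mm10 and GRCm38.p6 as builds. The tool and strand used for counting are not given in the sources used here, so overlapping genes may share reads, although per the labels the TruSeq kit was stranded. Symbols came from GENCODE M21, which held 54495 of 54532 identifiers.

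Genes passing filterByExpr (minimum count 10, minimum total 15), 15650 in all, entered the quasi-likelihood model of edgeR 4.0.16 after TMM normalisation, fitted to all 12 libraries, with Benjamini-Hochberg adjustment over all genes and a threshold of 0.05. DESeq2 1.42.0 and limma 3.58.1 (voom, chosen after seeing the data) were alternatives, run in R 4.3.3. Tables and figures were made in Python 3.11.15 (matplotlib 3.10.9, numpy 2.4.6, pandas 2.3.3). SEs follow from the log2 difference and its F statistic. Marker scores are means of log2 CPM with a prior count of 2. RPKM use the exon union length. The fits were tested on simulated data. No libraries were duplicates (lowest chi-square per degree of freedom 52.6). Depth is 13194699 to 22639625 counts.

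Members and lists were chosen with earlier results of these data known. Values in every library are given for the 5 members with the smallest p in each comparison and for the macrophage slope, and for Tfeb, Tfe3, Mitf, Lamp1, Ctsb, Ctsd, Ctsk and Glb1. From each pathway list up to 2 genes with the smallest p were named. Marker lists for other cell types were macrophage, osteoclast, dendritic cell, neutrophil, mast cell, T cell, B and plasma cell, fibroblast, endothelial, skeletal muscle, adipocyte, Schwann lineage, melanocyte and proliferation genes.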

Additional observations from a re-analysis of the deposited data

Results flagged for a closer look

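Among 126 groups of 4 libraries (each member in each group), 4 held a library whose gap to the nearest other exceeded 0.829 of the group's range, the 95% limit of Dixon's test. Chance alone flags about 1 in 20 such groups. Ctsk stood at 304.5 CPM in vehicle replicate 2, where the other vehicle libraries were at 26.49 to 33.83. Naglu stood at 62.18 CPM in the same library, against 44.03 to 46.91 in the others of its group, which is still below the lowest regressing tumour. Ids was at 75.55 CPM in regressing replicate 3, with the others of that group at 57.31 to 58.59. Tpp1 was lowest in regressing replicate 3, at 123.3 CPM against 128.3 to 128.9, in a group whose whole spread was small.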

How the results depend on the processing

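Each comparison was repeated under 22 alternatives and each slope under 18. By edgeR and limma-voom, 0 members were called in every comparison under every alternative. By DESeq2, 3 were called for regressing against vehicle and 0 in the others. The macrophage slope called 0 members throughout, and the muscle slope called 1, Tfeb, without a group term (5.52% of all genes called) and without vehicle replicate 2 (1.81%). The median difference of the members stayed positive when each library was left out, at 0.10 to 0.23, 0.18 to 0.32 and 0.01 to 0.12 in the 3 comparisons, and 0.06 to 0.25 for the macrophage slope; for the muscle slope it ran from −0.02 to 0.04.

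Numbers of members at an unadjusted p under 0.05 moved more. For regressing against vehicle (4) it was 2 without regressing replicates 1 and 4 (3.54% of all genes) and 3 to 7 leaving out each library, with 7 without vehicle replicate 1 (12.8%). For terminal combination against vehicle (6) it was 2 with the muscle score (2.57% of all genes) and 1 to 9 leaving out each library, with 1 without vehicle replicate 4 (4.5%) and 2 without vehicle replicate 3 (3.61%) or terminal combination replicate 2 (3.65%). For terminal combination against regressing (2) it was 1 to 4 leaving out each library. It was 1 with only the 2 groups (6.26% of all genes) and with the FFT ending as covariate (6.55%). The same count of 1 came without FFT libraries (5.41%), with the muscle score (5.73%) and by limma-voom (5.46%). For the macrophage slope (5) it was 0 without FFT libraries (1.87% of all genes). For the muscle slope (2) it was 10 with no group term (beside 20.4% of all genes) and 1 to 4 leaving out each library. Leaving out each library, the share of all genes was 7.96 to 13.8%, 3.61 to 10.2% and 4.58 to 8.84% in the 3 comparisons. For the muscle slope that share was 7.52 to 13.4%.

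Reversed signs were found for Mitf, regressing against vehicle, at −0.10 with the muscle score, for Tfeb, terminal combination against vehicle, at −0.069 with the muscle score, and for Tfeb, terminal combination against regressing, at 0.02 without regressing replicates 1 and 4. The cause was not tested. The 4 libraries whose titles end in FFT (2 vehicle, 1 in each treated group) are unexplained in the labels. The lowest count of any member in any library was 104 reads. No paired analysis was possible because replicate numbers were given in accession order only.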

Other observations

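Marker lists for other cells gave summed levels that describe the tumours behind these values. Skeletal muscle markers summed to 547 to 9230 CPM in vehicle, 3910 to 54000 in regressing and 2720 to 33700 in terminal combination tumours. Adipocyte markers summed to 3.66 to 47.3, 119 to 572 and 15.9 to 157 CPM in the same order, with vehicle wholly below regressing. Proliferation genes went from 579 to 996 CPM in vehicle, 257 to 711 in regressing and 156 to 723 in terminal combination tumours. Fibroblast markers had the highest mean sum in each group, at 17200 to 26500, 22500 to 31300 and 13600 to 33700 CPM. Skeletal muscle markers summed higher than these in regressing replicates 1 and 4 (54000 and 30500 against 23500 and 23800 CPM). The same held in terminal combination replicate 2 (33700 against 20400 CPM).

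Lymphoid markers were above the vehicle range in several regressing tumours. T cell markers summed to 79.8 and 307 CPM in regressing replicates 2 and 4, and to 37 and 17.6 in replicates 1 and 3, against 28.9 to 40.2 in vehicle and 15 to 55.6 in terminal combination tumours. B and plasma cell markers summed to 54.5, 129 and 228 CPM in regressing replicates 1, 2 and 4 and to 12.4 in replicate 3, against 5.03 to 16.7 in vehicle and 2.14 to 10.4 in terminal combination tumours. Dendritic cell markers ran from 25.5 to 206 CPM in regressing, 38.5 to 61.9 in vehicle and 17.5 to 78.5 in terminal combination tumours. The ranges for vehicle, regressing and terminal combination tumours were 12.4 to 60.6, 10.8 to 29.4 and 10.7 to 18.4 CPM for neutrophil markers, 19.5 to 188, 78.9 to 240 and 24.5 to 403 for mast cell markers, 161 to 453, 361 to 430 and 175 to 363 for endothelial markers, and 0.299 to 0.934, 1.62 to 22.5 and 0.774 to 2.3 for melanocyte markers. These lists were not tested against the lysosomal genes, apart from the macrophage and muscle scores.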
